A study of Rattus norvegicus with 72 samples.

Results

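The noradrenaline transporter gene Slc6a2 was measured by qRT-PCR on a panel of 145 genes, and was the only one found there of the catecholamine genes looked for by symbol. The symbols looked for were Slc6a2, Th, Dbh, Ddc, Slc18a2 and Maoa by name, and any adrenoceptor gene by the start of its symbol, which gave 1 gene of 145. The gene of the β-adrenergic receptor kinase, Adrbk1, was not taken as a receptor and is described with the signalling genes below. In the dorsal vagal complex (DVC), Slc6a2 gave a value in 38 of 39 samples. In the central nucleus of the amygdala (CeA) it gave a value in 1 of 33 samples, the fewest of any of the 145 genes. Its level in the DVC did not differ detectably between the 3 times of day.

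The study asked how transcript levels in these 2 brain regions vary with the time of day, given as Zeitgeber time (ZT), the hours since lights on. Tissue came from 40 young male Sprague Dawley rats that received no treatment, were individually housed, had no alcohol, and were all kept on an alcohol-free maltose-dextrin Lieber DeCarli liquid diet in restricted amounts, so that no group was fed freely. The 39 DVC samples came from 7 animals at ZT3, 17 at ZT5 and 15 at ZT9, the 33 CeA samples from 7, 14 and 12 animals, and 32 animals gave both regions. Each sample is the bilateral micropunch of 1 animal, without pooling, so a punch holds all cell types of the region. The animal numbers of all ZT3 rats lie in the upper part of the numbering. The comparisons of Slc6a2 and the counts of the signalling genes were therefore repeated among the higher-numbered animals. These animals gave 23 DVC and 21 CeA samples.

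Noradrenaline is made from dopamine by dopamine β-hydroxylase in noradrenergic neurons and released from their axons. The transporter encoded by Slc6a2 sits in the membrane of these neurons, carries released noradrenaline back into the cell with sodium and chloride, and is the target of reuptake inhibitors such as desipramine and reboxetine. One noradrenergic cell group lies in the nucleus tractus solitarius of the DVC, while the CeA is known as a target of noradrenergic axons from the brainstem.

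In the rat genome assembly GRCr8, RefSeq places Slc6a2 (NCBI Gene 83511) on chromosome 19 from position 30183289 to 30228292. The primers are shown because all values of the gene rest on the 73 bp product between them. Primers are written 5′ to 3′ in lower case as DNA.

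Slc6a2 forward primer: ctgtcctgttcttcctgatgc

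Slc6a2 reverse primer: gtgatgactgcctccatgc

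The primers of the other 3 genes that gave a value in the CeA less often than in the DVC are shown for comparison. Slc6a12 encodes the betaine and GABA transporter of the same gene family, Agtr2 encodes the angiotensin II type 2 receptor, and Fosl1 encodes a subunit of the AP-1 transcription factor. Their products of 70, 60 and 68 bp were of similar length to that of Slc6a2.

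Slc6a12 forward primer: tctgaagtggctgagtcaggt

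Slc6a12 reverse primer: aaggcatcatcgtcactgc

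Agtr2 forward primer: gaacagaattacccgtgacca

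Agtr2 reverse primer: atgaatgccaacacaacagc

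Fosl1 forward primer: gcaagcgcagacacagac

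Fosl1 reverse primer: cactgacagcgttgatgctt

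Values are threshold cycles (C_T), the PCR cycle in which fluorescence first exceeds a set level, so a later C_T means less template and 1 cycle stands for about 2-fold. A failed reaction has no value. Samples had between 0 and 6 failed reactions in the DVC and between 1 and 9 in the CeA, apart from 2 CeA samples. In these 2, ZT5 replicate 1 and ZT9 replicate 10, 78 and 74 reactions failed. The panel was treated as 2 assay sets, of 72 genes with Slc6a2 and of 73 genes. The labels do not give this division, which was inferred from these 2 samples. The assay set of Slc6a2 is the unbroken run of genes, from the first in the deposited order, that failed in both. These 2 samples are counted below unless stated otherwise. The median C_T of a sample over its genes ran from 17.9 to 21.2 in the DVC and from 18.5 to 22.05 in the CeA.

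As a check of the region labels, panel genes known from particular cell types were compared between regions with limma. Neither of the 2 genes of GABA neurons (Gad1 and Slc32a1) passed the test, with or without adjustment, and their smallest adjusted p was 0.106. Of 3 genes known from astrocytes, Clu and Ntrk2 were higher in the CeA, by 0.48 and 0.83 on the log2 scale, and Aldh1a1 was higher in the DVC. Rgs9 and Scn4b, known from medium spiny-type neurons of the forebrain, were higher in the DVC, by 0.82 and 2.74 on the log2 scale, which is not the direction their name would give for the CeA. Other genes, looked up after their values were seen, were higher in the CeA by more. Such were the kinase gene Ptk2b, with a difference of −4.54, and the GABA-A receptor subunit gene Gabrd, with −3.75. Chosen by their values, these 2 genes do not check the labels. The labels were kept as given. The panel holds no other gene that defines noradrenergic neurons, so the label of the DVC could not be checked by such markers without using Slc6a2 itself.

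The regions differed in whether Slc6a2 could be measured at all. In the DVC it gave a value in 7 of 7 samples at ZT3, 16 of 17 at ZT5 and 15 of 15 at ZT9, or 97.4% of samples (exact Clopper-Pearson 95% interval 86.5% to 99.9%). In the CeA it gave a value in 0 of 7 samples at ZT3, 1 of 14 at ZT5 and 0 of 12 at ZT9, or 3.03% (0.0767% to 15.8%). Without the 2 CeA samples that lack the assay set, the share was 1 of 31, or 3.23%, with an upper limit of 16.7%. The shares differed by 94.4 percentage points (two-sided Fisher's exact test, adjusted p = 5.40e-16 over 145 genes). The intervals cover only the number of samples.

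Detection that differed between regions was rare on the panel. After adjustment, 5 of 145 genes, 3.45%, differed in either direction, and 4 genes, 2.76%, gave a value more often in the DVC. Besides Slc6a2 these were Agtr2, with a value in 38 DVC and 6 CeA samples, Slc6a12, in 38 and 13, and Fosl1, in 29 and 7.

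The same contrast was seen within animals. Of the 32 rats with both regions, 31 had a Slc6a2 value in the DVC and none in the CeA, 1 had a value in both, and none had a value in the CeA alone (exact McNemar test, p = 9.31e-10, adjusted p = 1.35e-07 over 145 genes). By time point, the DVC alone gave a value in 7 of 7 rats at ZT3, 12 of 13 at ZT5 and 12 of 12 at ZT9, so the contrast was not confined to 1 time of day. With Fisher's exact test within each time point, the adjusted p was 0.0845 at ZT3, 1.31e-04 at ZT5 and 8.34e-06 at ZT9. At ZT3 no table of 7 against 7 samples is more extreme, and its unadjusted p of 5.83e-04 is the smallest that this design can give.

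**Figure D1:**
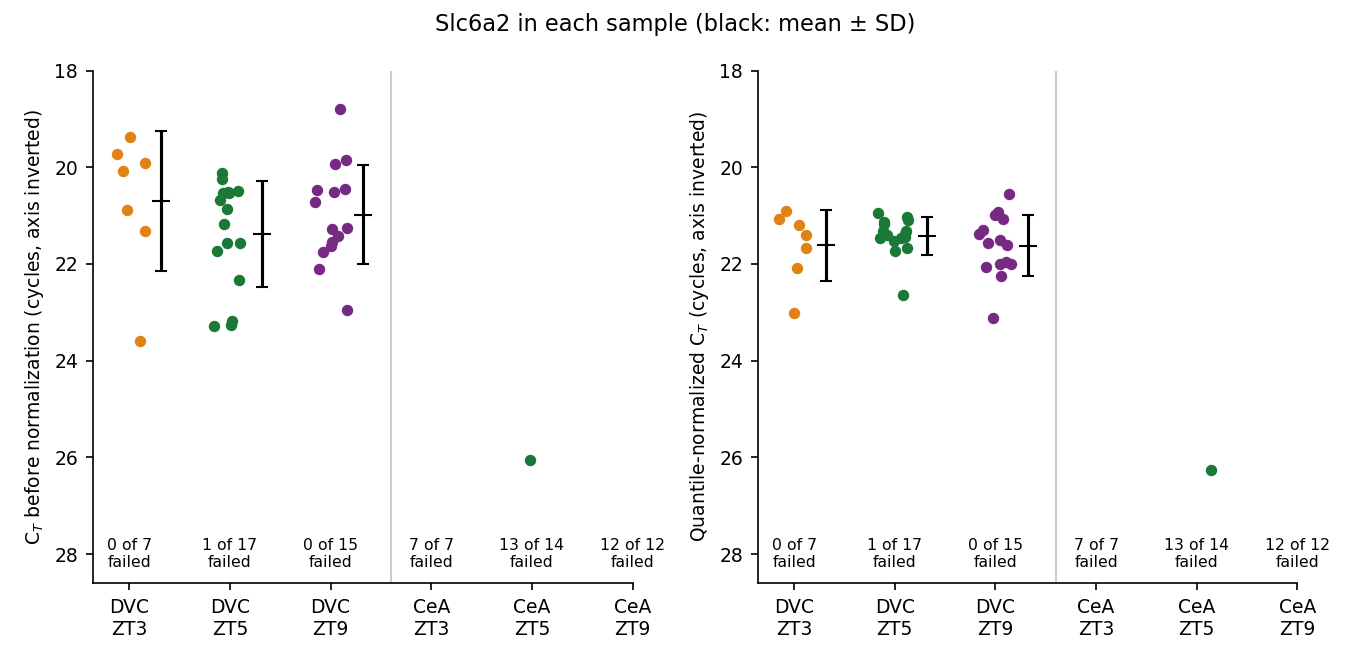
Slc6a2 C_T of each sample before normalization (left) and after the authors' quantile normalization (right), in cycles on an inverted axis so that higher expression is at the top, by region and time point. Points are samples, black marks are means ± SD, and the failed reactions are written at the bottom: 38 of 39 DVC samples have a point and 1 of 33 CeA samples does.

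Assays with a C_T like that of Slc6a2 in the DVC mostly did give values in the CeA. The mean normalized C_T of Slc6a2 in the DVC was 21.54 ± 0.56 (SD, n = 38). The 23 other assays whose DVC mean lay within 1 cycle of it gave a value in 26 to 33 CeA samples, with a median of 31. Another 38 assays had a later DVC mean than Slc6a2, and 34 of them gave a value in at least 26 CeA samples. Within its own assay set, the 71 other assays gave a value in a median of 31 CeA samples, and the lowest of them, Agtr2, in 6.

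**Figure D2:**
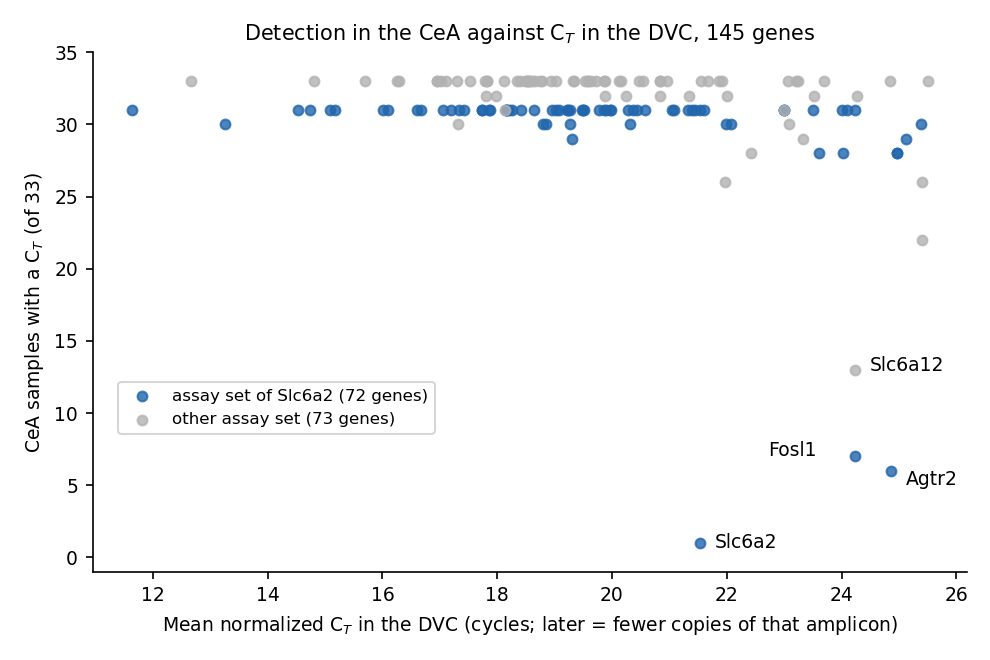
Number of CeA samples with a C_T (of 33, vertical axis) against the mean normalized C_T in the DVC (cycles, horizontal axis) for the 145 genes, coloured by assay set. Slc6a2, with 1 CeA sample, lies apart from the 23 assays within 1 cycle of its DVC mean, all of which have at least 26.

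The C_T of whole samples was also compared between the regions of the same rat. In the 30 animals in which both regions had the assay set and the DVC had a Slc6a2 value, the CeA minus DVC difference of the sample median C_T was 0.963 cycles in the median, with a range from −1.12 to 3.06 cycles, and was above 2 cycles in 5 animals. How low a level the assay could have recorded is not known, so a low level in the CeA cannot be told apart from none.

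The 1 CeA value came from ZT5 replicate 16 and was late. Its C_T was 26.1 before normalization, in a sample with a median C_T of 18.99 and 2 failed reactions, and only 1 gene of that sample had a later C_T. The DVC sample of the same rat had a Slc6a2 C_T of 20.5 and a sample median of 18.6. The CeA value was therefore 5.58 cycles later before normalization and 4.72 cycles later after it, whereas the sample medians differed by 0.36 cycles. This is 1 animal with no replicate, and 4 other CeA samples with an earlier median C_T gave no Slc6a2 value. The punches are bulk tissue, in which fewer cells that express a gene and less RNA per cell cannot be told apart.

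The level could be followed over the day only in the DVC. At ZT3 the normalized C_T of Slc6a2 ran from 20.91 through a median of 21.40 to 23.00 in the 7 samples. At ZT5 it ran from 20.95 through 21.39 to 22.64 in 16 samples, and the remaining ZT5 sample, replicate 4, had no value. At ZT9 it ran from 20.56 through 21.57 to 23.11 in 15 samples. The 3 groups overlapped: 5 of the 7 ZT3 values and 12 of the 15 ZT9 values lay within the ZT5 range. Among higher-numbered animals alone, where the ZT5 values spread less, 4 of 7 ZT3 values and 1 of 5 ZT9 values lay within it, with values outside it on both sides.

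In order of mean expression, ZT5 was first with a mean C_T of 21.42 ± 0.39 (SD, n = 16), followed by ZT3 with 21.62 ± 0.73 (n = 7) and ZT9 with 21.62 ± 0.64 (n = 15). No neighbours in this order differed beyond their spread. Differences are given as −ΔΔC_T, the ZT5 mean minus the value, which is a log2 difference that is positive where expression was higher than at ZT5. Expression at ZT3 was lower than at ZT5 by 0.19 in mean (−ΔΔC_T −0.19, 95% interval −0.70 to 0.32, limma SE 0.25, adjusted p = 0.823; exact permutation p = 0.410). At ZT9 the difference from ZT5 was −0.20 (−0.60 to 0.21, limma SE 0.20, adjusted p = 0.604; permutation p = 0.305). Between ZT9 and ZT3 it was near 0, with a 95% interval from −0.52 to 0.51 (limma adjusted p = 0.996; exact permutation p = 0.994).

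The test over all 3 time points gave the same picture for the gene (limma F = 0.59, p = 0.560, adjusted p = 0.773 over 145 genes; permutation p = 0.580). On the whole panel 10.3% of genes passed that test in the DVC, and 5.52%, 7.59% and 2.07% passed the contrasts of ZT3 with ZT5, of ZT9 with ZT5 and of ZT9 with ZT3. Slc6a2 stood at rank 105 of 145 by p. The 95% intervals reached from 0.70 cycles below to 0.32 cycles above the ZT5 mean at ZT3, and from 0.60 below to 0.21 above it at ZT9.

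The sign of the ZT3 difference depended on the normalization and on 1 sample. Before any normalization the value for ZT3 against ZT5 was 0.68, and with each sample centred on its median it was 0.11, both without passing the test. The sample DVC ZT3 replicate 7, with the latest C_T of its group, carried the negative sign: without it the difference was 0.04. Among higher-numbered animals alone the differences from ZT5 were −0.32 at ZT3 (7 against 11 samples, exact permutation p = 0.226) and −0.35 at ZT9 (5 against 11, exact permutation p = 0.324). Among the lower-numbered animals the ZT9 difference had the other sign, 0.09 (10 against 5, exact permutation p = 0.716).

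**Figure D3:**
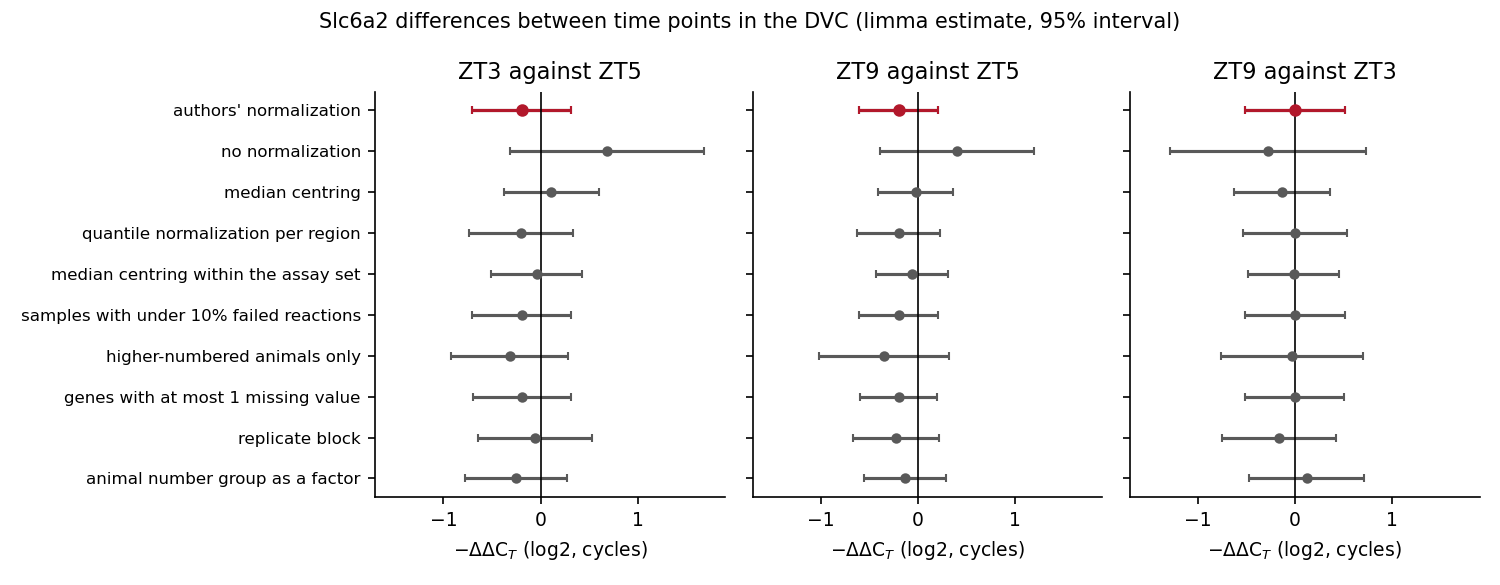
Differences of Slc6a2 between time points in the DVC as −ΔΔC_T (log2, cycles, horizontal axes), with limma's 95% intervals, under the authors' normalization (red) and 9 other settings (grey), 1 panel per contrast. Every interval includes 0, and the estimates of ZT3 against ZT5 run from −0.32 to 0.68. The setting with under 10% failed reactions repeats the fit in red, since it removed no DVC sample.

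Animals within a time point differed more than time points did. The SD of Slc6a2 within time points was 0.565 cycles, against 0.516 for the median gene of the panel, and 91 of 145 genes varied less. On the scale of C_T minus the sample median it was 0.538, which is the value of the median gene. The latest normalized values were those of ZT9 replicate 12 (23.11), ZT3 replicate 7 (23.00) and ZT5 replicate 2 (22.64), 1 at each time point. ZT9 replicate 12 stood first among all DVC samples only after quantile normalization. On the scale of C_T minus the sample median it stood at rank 6, with 2.57 cycles, whereas ZT5 replicate 2 led with 3.38 and ZT3 replicate 7 followed with 3.07.

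Before normalization the Slc6a2 C_T followed the C_T of the sample as a whole. Across the 38 DVC samples its C_T correlated with the sample's median C_T (Pearson's r = 0.909, Spearman's rho = 0.869, permutation p = 1e-05 for both, the smallest that 100000 draws can give, adjusted p = 2.00e-05 over 2 relations), and r was 0.893 without the 2 samples farthest from the middle. After normalization r was 0.234 (permutation p = 0.157, adjusted p = 0.157) and rho 0.249 (p = 0.131), and r without the 2 farthest samples was 0.340.

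The genes whose normalized C_T followed Slc6a2 most closely over the DVC samples were sought among the 141 genes with at least 30 shared samples. They were Arrb1, which encodes β-arrestin 1 (r = 0.66, rho = 0.50), Prkca, a protein kinase C (r = 0.55, rho = 0.47), Rasa3 (r = 0.52, rho = 0.39), Rasgrp1 (r = 0.52, rho = 0.37) and Map3k12 (r = 0.50, rho = 0.48). Rasa3 and Rasgrp1 encode a GTPase-activating protein and a nucleotide exchange factor of Ras-type proteins, and Map3k12 a kinase of the JNK cascade. Permutation tests of r gave adjusted p-values of 0.00141 for Arrb1, 0.0275 for Prkca and Rasa3, and 0.0296 for Rasgrp1 and Map3k12. By rho none of the 5 passed after adjustment. A negative r of similar size was found for Crebbp, the gene of a CREB-binding coactivator (r = −0.55, adjusted p = 0.0275; rho = −0.58, adjusted p = 0.0324 by permutation), which alone passed by rho, and for Gabrd (r = −0.54, adjusted p = 0.0326). Both belong to the other assay set.

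The likeness differed between settings and between the assay sets. All 7 genes called with a positive r, 4.96% of the 141, belonged to the assay set of Slc6a2. The median r was 0.229 over the 70 genes of this set and −0.111 over the 71 genes of the other. Without the 2 samples farthest from the median of Slc6a2, r of Arrb1 was 0.47 (permutation, adjusted p = 0.285) and no gene passed, and with median centring of each sample no gene passed either. With each assay set centred on its own median the medians of r were −0.00742 and −0.0315. In that setting r of Arrb1 was 0.42 (permutation, adjusted p = 0.106), and none of the genes named above as most like Slc6a2 passed. The 2 genes called there with a positive r belonged to the other assay set. With time point means removed, r of Arrb1 was 0.69 (permutation, adjusted p = 0.00141) and 11 genes passed with a positive r, and among higher-numbered animals it was 0.81 (adjusted p = 0.00282) and 7 passed. The part of the shared assay set in these correlations was not tested further.

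Although no adrenoceptor was among the members, the panel holds 15 genes of the machinery through which adrenoceptors and other G protein-coupled receptors act. Between regions, 10 of the 15 passed the limma test, against 70.4% of all genes tested on the panel, made up of 41.5% with higher expression in the DVC and 28.9% with higher expression in the CeA. The list was split evenly, with 5 genes higher in each region and a median difference, DVC minus CeA, of −0.09 on the log2 scale against 0.11 over all genes.

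Higher in the DVC were Kcnj9, a subunit of G protein-gated potassium channels, by 1.05 on the log2 scale, Prkca by 0.56, the cAMP-responsive transcription factor gene Creb1 by 0.54, the adenylyl cyclase gene Adcy9 by 0.39 and the β-arrestin 2 gene Arrb2 by 0.31. Higher in the CeA were the IP3 receptor gene Itpr1, with a difference of −2.10, the phospholipase C genes Plcb1 with −1.44 and Plcb2 with −0.77, the scaffold gene Slc9a3r1 with −0.66 and Rgs2, a regulator of G protein signalling, with −0.31. The G protein subunit gene Gnb1, Plcb3, the receptor kinase genes Adrbk1 and Gprk6, and Arrb1 did not pass. Adrbk1, whose product phosphorylates active β-adrenoceptors, had a difference of −0.20 (limma, adjusted p = 0.141), and Arrb1 one of −0.09 (adjusted p = 0.552). The count of genes that passed depended on the normalization: 13 with none, 13 with quantile normalization per region and 8 with median centring. When only genes with at most 1 missing value were tested, 1 was called, of the 2 genes of the list (Gnb1 and Kcnj9) that could be tested.

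Over the time points 1 of the 15 signalling genes passed in the DVC, against 10.3% of the panel. This was Rgs2, which was lower than at ZT5 by 0.68 at ZT3 and by 0.94 at ZT9 in mean −ΔΔC_T (limma F-test, adjusted p = 5.85e-04). In the CeA none of the 15 passed by limma, against 3.52% of the panel, and 2 had an unadjusted p under 0.05, against 14.8% of the panel. In the DVC 4 of the 15 had an unadjusted p under 0.05, against 21.4% of the panel. The receptor kinase gene Adrbk1 had mean −ΔΔC_T values in the DVC of −0.38 (ZT3) and −0.47 (ZT9; limma F-test, adjusted p = 0.211), and in the CeA of −0.72 (ZT3) and −0.00325 (ZT9; adjusted p = 0.0650). The list's count in the DVC was 2 with median centring, 3 with replicate number as a block and 0 among higher-numbered animals. The replicate number joins separate rats, so that block adjusts for no known pairing.

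**Figure D4:**
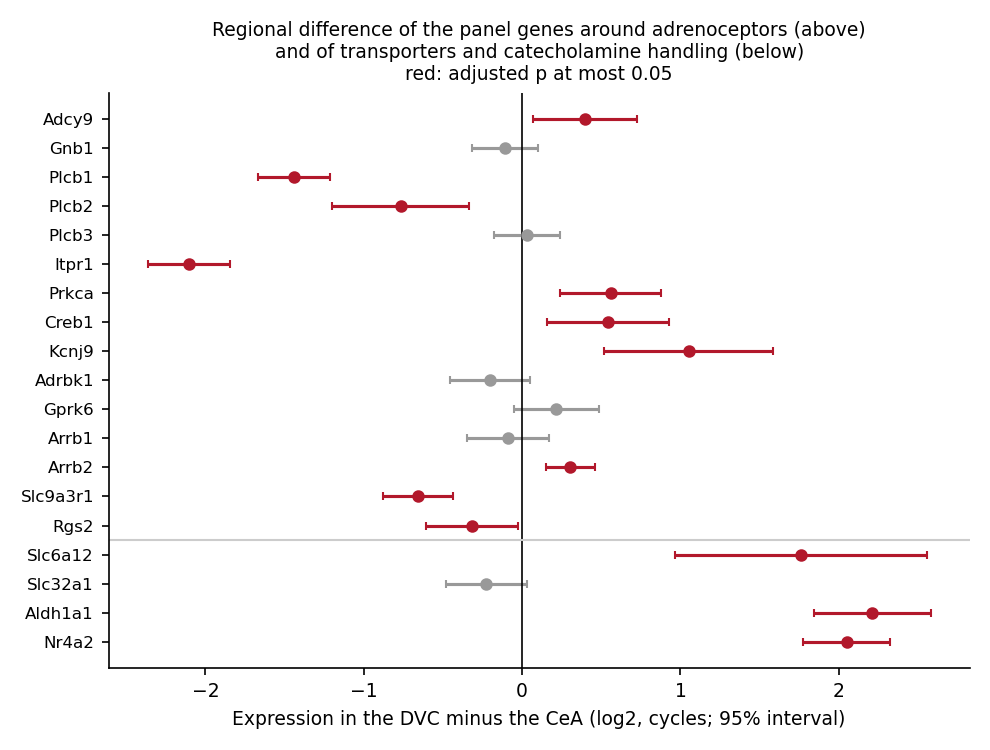
Expression in the DVC minus the CeA (log2, cycles, horizontal axis) with limma's 95% intervals for the 15 signalling genes (above the line) and the 4 genes of transport and catecholamine handling (below). Genes in red have an adjusted p of at most 0.05: 5 signalling genes lie on each side of 0, and 3 of the 4 others lie to the right.

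Of 4 further genes of membrane transport and of the handling of catecholamines, 3 were higher in the DVC by limma and none in the CeA, against 41.5% and 28.9% of the panel. Aldh1a1, an aldehyde dehydrogenase of dopamine neurons and astrocytes, was higher by 2.21 on the log2 scale, and Nr4a2, a transcription factor of the dopamine neuron lineage that also responds to neuronal activity, by 2.05. Slc6a12 was higher by 1.76. The vesicular GABA transporter gene Slc32a1 had a difference of −0.23 and did not pass. Slc6a12 was compared over the 13 of 33 CeA samples that gave a value, with a late mean C_T of 26.03. The CeA samples without a value did not enter its difference.

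Over the time points, Nr4a2 and Slc32a1 passed in the DVC, against 10.3% of the panel, and Nr4a2 in the CeA, against 3.52%. Nr4a2 was higher than at ZT5 in the DVC by 0.87 at ZT3 and 0.78 at ZT9 (limma F-test, adjusted p = 8.27e-04) and in the CeA by 1.13 and 1.16 (adjusted p = 0.00484). Slc32a1 had mean −ΔΔC_T values in the DVC of 0.29 (ZT3) and −0.56 (ZT9; adjusted p = 0.0481). Its C_T was late, with a DVC mean of 24.96. Values came from 7 of 7 DVC samples at ZT3, 12 of 17 at ZT5 and 14 of 15 at ZT9, and samples without a value did not enter. Of the 3 astrocyte genes, Clu and Ntrk2 also passed in the DVC, with 0.96 and 0.03 at ZT3 and 0.78 and 0.70 at ZT9 (adjusted p = 0.00652 and 0.0117), and Aldh1a1 did not, with −0.07 and 0.14 (adjusted p = 0.778). Whether tissue composition had a part in the changes of these genes was not tested. For Nr4a2, Slc32a1, Clu and Ntrk2, values among higher-numbered animals alone, which include all ZT3 rats, are not given. By limma's interaction test, the change over time differed between regions for none of the 19 genes of the 2 lists. Their smallest adjusted p was 0.439. No other gene tested on the panel passed either, so this result does not set the lists apart from the panel.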

How the data were processed

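RNA from DVC and CeA punches was reverse transcribed from 100 ng, pre-amplified for 14 cycles and run for 40 cycles on microfluidic qRT-PCR arrays. The authors deposited C_T values on a log2 scale, before and after their quantile normalization of the samples, with failed reactions missing. Their group means and differences were also deposited and were not used. Samples were grouped by the region and time point in their labels, and columns were matched by animal number. The headers of the values before normalization call the DVC samples NTS, read as the nucleus tractus solitarius, a part of the DVC. The headers after normalization and the sample titles call them DVC. The animal number also linked both regions of a rat, for the McNemar test and for an alternative limma fit with the animal as a block. The main limma comparison of regions had no animal term and treated the samples as independent. The limma consensus correlation of both regions of a rat was 0.0675 over genes. Replicate numbers shared between time points belong to separate rats. The normalized values were used unless stated.

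Detection was compared by two-sided Fisher's exact and McNemar tests. Levels were compared with limma 3.58.1 in R 4.3.3, by region for time points (genes with at least 2 values per time point, which were all 145 in the DVC) and over all samples for the region contrast. Benjamini-Hochberg adjustment ran over all genes tested, with a threshold of 0.05. Permutation tests were two-sided for differences and correlations and one-sided for F, exact where a group had fewer than 10 samples, otherwise with 100000 draws. Python 3.11.15 with scipy 1.17.1, numpy 2.4.6 and pandas 2.3.3 was used.

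The members and gene lists were chosen with earlier results of these data known. Named genes are the member, the genes of the 2 lists, the 5 most like Slc6a2 by Pearson's r, and genes with a value in fewer than 10 CeA samples. Slc6a12, in 13, the marker genes, Crebbp, Gabrd and Ptk2b were named besides, the last 3 after their values were seen. A few genes first chosen for the lists were left out of them and are not reported here.

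Alternatives were no normalization, median centring, quantile normalization per region, samples with under 10% failed reactions and higher-numbered animals. Others were genes with at most 1 missing value, a replicate block, animal number as a factor and leaving out samples. The one-way ANOVA and t-tests used by the study were also run for Slc6a2. The limit of 10% failed reactions removed the 2 half-measured CeA samples and no DVC sample. The replicate block was the animal between regions and the replicate number over time points. Leaving out the 2 half-measured samples, leaving out each DVC sample and centring within the assay set were chosen after seeing the data. On simulated data, limma called 26 of 40 genes shifted by 1 cycle in the DVC at ZT3 and 1 other of 145. Precision is limited by the number of animals and failed reactions, since C_T values carry no counts.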

Additional observations from a re-analysis of the deposited data

Results flagged for a closer look

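Among the genes named here, 3 of 50 groups of 4 to 10 samples held a sample set apart from the others by more than the 95% critical value of Dixon's test, where chance gives about 5%. In DVC ZT3 replicate 7, the normalized C_T of Arrb1 was 20.98 against 18.67 to 19.50 in the other 6 samples. The same sample had the latest Slc6a2 C_T of its group, 23.00. In CeA ZT3 replicate 6, the C_T of Kcnj9 was 20.12 against 18.86 to 19.29 in the others. In CeA ZT9 replicate 11, the C_T of Gprk6 was 25.21 against 23.61 to 24.37 in the others. The causes were not tested.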

How the results depend on the processing

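The difference in detection of Slc6a2 passed the test under 6 of 7 alternatives, with differences of 87.0 to 100 percentage points. It missed the test at ZT3 alone (100 points, Fisher's exact test, adjusted p = 0.0845), where 7 samples face 7. The limit on failed reactions and the removal of the half-measured samples left out the same CeA samples, so their results are identical. No test over the 3 time points called Slc6a2 under the 10 alternatives run (limma adjusted p 0.429 to 0.985) and over the 38 fits that left out 1 DVC sample (0.599 to 0.849). Signs turned for ZT3 against ZT5 with no normalization (0.68) and median centring (0.11), for ZT9 against ZT5 with no normalization (0.40), and for ZT9 against ZT3 with quantile normalization per region (9.73e-04) and the animal number as a factor (0.12). Leaving out 1 sample at a time gave −0.31 to 0.04 (0.0372, without DVC ZT3 replicate 7) for ZT3 against ZT5, −0.28 to −0.09 for ZT9 against ZT5 and −0.24 to 0.11 for ZT9 against ZT3. With the replicate number as a block, which joins separate rats, the values were −0.06 for ZT3 and −0.23 for ZT9 against ZT5. The block over animals in the detection test (exact McNemar test) gave an adjusted p of 1.35e-07. Of the 15 signalling genes, 1 passed over time in the DVC, against 2 with median centring or with centring within the assay set, 0 in higher-numbered animals and 3 with the replicate block. Between regions 10 passed, against 13 with no normalization, 13 with quantile normalization per region and 8 with median centring. Among genes with at most 1 missing value 1 passed, where 2 of them were tested. Of the 5 genes most like Slc6a2, 0 stayed among the first 5 with no normalization, 3 with median centring, 3 without the 2 farthest samples, 4 with time point means removed, and 2 each in higher-numbered animals and with centring within the assay set. Number of animals and failed reactions limit these values, and the causes of the turned signs were not tested.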
